A study of Homo sapiens with 9 samples.

Results

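Collagen genes were examined in orthotopic anaplastic thyroid tumors of mice. A gene was taken as a collagen when its symbol read Col, a number, a and a second number, which selected 40 of the 17369 genes in the table. Of these, 11 encode chains of fibrillar collagens, 4 encode chains of the type IV collagen of basement membranes and 25 encode chains of other types. A level of at least 1 FPKM (fragments scaled by transcript length and by the fragments of the library, so a level per length) in at least 3 tumors was reached by 18 of the 40 collagens and by 10263 genes in all. These 18 were 7 fibrillar, 2 basement membrane and 9 other chains, and all 18 were above 1 FPKM in each of the 9 tumors.

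TBP3743 is a murine anaplastic thyroid cancer line from B6129SF1 hybrid mice that carried Braf V600E and a deletion of Trp53, both limited to the thyroid. Every tumor therefore derived from cells with both lesions, and no other line was included. Whole-tumor RNA came from 9 tumors, each grown for 14 days after 100000 cells were injected into the thyroid of a female mouse aged 6 weeks. The groups, named by cells and host, were original cells in B6129SF1 mice (original/B6129SF1, 3 tumors), adapted cells in the same strain (adapted/B6129SF1, 3 tumors) and adapted cells in hosts of the inbred strain C57BL/6 (adapted/B6, 3 tumors). Adapted cells are TBP3743 cells recovered after round 3 of subcutaneous passage through C57BL/6 mice, a procedure that carried forward cells of large tumors. The labels name the organism as human, whereas the line, the hosts, the genome build and the gene symbols are those of the mouse. Replicates are separate tumors by their labels, so p-values measure the spread between tumors.

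Collagens are secreted proteins in which 3 chains wind into a triple helix, and they form the main scaffold of the extracellular matrix. Fibrillar types I, III and V assemble into cross-linked fibers, type IV forms the sheet of basement membranes, and other types coat fibers, link them to cells or form networks of short chains. Fibroblasts are the best-known source in carcinomas, and tumor cells of mesenchymal character can make collagen as well. In RNA from whole tumors, a change in the number of cells of a type cannot be told apart from a change in RNA per cell.

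The labels call the samples cancer epithelial cells. Krt8 and Krt18, keratins of simple epithelium, lay between 153 and 615 FPKM and between 110 and 390 FPKM. Epcam and Cdh1, the defining adhesion molecules of epithelium, did not exceed 2.49 and 4.48 FPKM. Of the thyroid markers, Nkx2-1, a transcription factor of the thyroid and lung, was between 23.5 and 44.5 FPKM, whereas Slc5a5, the iodide transporter, and Tshr, the thyrotropin receptor, were at most 0.142 and 0.0703 FPKM. Tg (thyroglobulin) ranged from 0.0153 to 31.0 FPKM, at 0.0153, 30.2 and 12.2 FPKM in original/B6129SF1, at most 1.20 FPKM in adapted/B6129SF1, and 31.0, 11.3 and 0.358 FPKM in adapted/B6. Pax8, a thyroid transcription factor below the filter, was between 0.592 and 1.61 FPKM in original/B6129SF1, at most 0.136 FPKM in adapted/B6129SF1 and between 0.212 and 0.885 FPKM in adapted/B6. Tg and Nkx2-1 were the thyroid markers tested, and neither was a DEG against original/B6129SF1. Every tumor thus kept Nkx2-1 and keratins, with the receptor and the transporter near 0. Host cells were also in the tissue, as Pecam1 of the endothelium was between 19.1 and 33.8 FPKM and Cd52 of leukocytes between 123 and 383 FPKM.

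A pair of tumors stood apart by transcripts of skeletal muscle, the tissue next to the thyroid. The 14 muscle markers summed to 36488 FPKM in adapted/B6129SF1 replicate 3 and 6170 FPKM in adapted/B6 replicate 1, against 748 FPKM or less in the other 7 tumors. Mylpf, a myosin light chain of fast muscle, was at 11294 and 695 FPKM in these tumors. It was the most abundant marker in the former, whereas Acta1, the skeletal muscle actin, was in the latter, at 1402 FPKM. Of the 12 fibroblast markers, 8 were highest in adapted/B6129SF1 replicate 3. Postn (periostin) was at 297 FPKM there and at most 46.6 FPKM elsewhere, Dpt (dermatopontin) at 31.6 and at most 9.83 FPKM, and Pi16, a marker of adventitial fibroblasts, at 16.4 and at most 7.99 FPKM. Other markers were not high there, as Pdgfra was at 99.3, Pdgfrb at 43.8 and Thy1 at 77.9 FPKM, each the lowest of the 6 adapted tumors, and Fn1 (fibronectin) was lowest of all 9, at 460 FPKM. Of the 18 collagens tested, 9 had their highest level in adapted/B6129SF1 replicate 3, and 11 had their lowest level in original/B6129SF1 replicate 2. Such counts were not made over all genes tested, so they are not read as a trait of collagens. Whether tissue around the tumor contributed to these collagen levels was not tested, and values without both muscle-rich tumors are given beside several of the results.

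Collagen type VI, which forms beaded filaments near cells, and the fibrillar types I and III led the collagen levels. Averaged over the 9 tumors, Col6a1 was the most abundant at 530 FPKM, then Col3a1 at 349, Col1a2 at 341, Col6a2 at 320 and Col18a1 at 193 FPKM. These 5 genes made up between 69.4% and 81.8% of the collagen FPKM of a tumor. Neighbors in this order overlapped in their ranges over tumors, since Col3a1, Col1a2 and Col6a2 all had tumors between 264 and 420 FPKM. The next levels were those of Col1a1 at 130, Col5a2 at 92.1, Col4a1 at 77.0, Col6a3 at 61.6, Col4a2 at 55.1, Col5a1 at 50.1 and Col8a1 at 48.2 FPKM. The remaining 6 genes tested ran from Col16a1 at 34.6 FPKM down to Col14a1 at 4.17 FPKM.

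**Figure D1:**
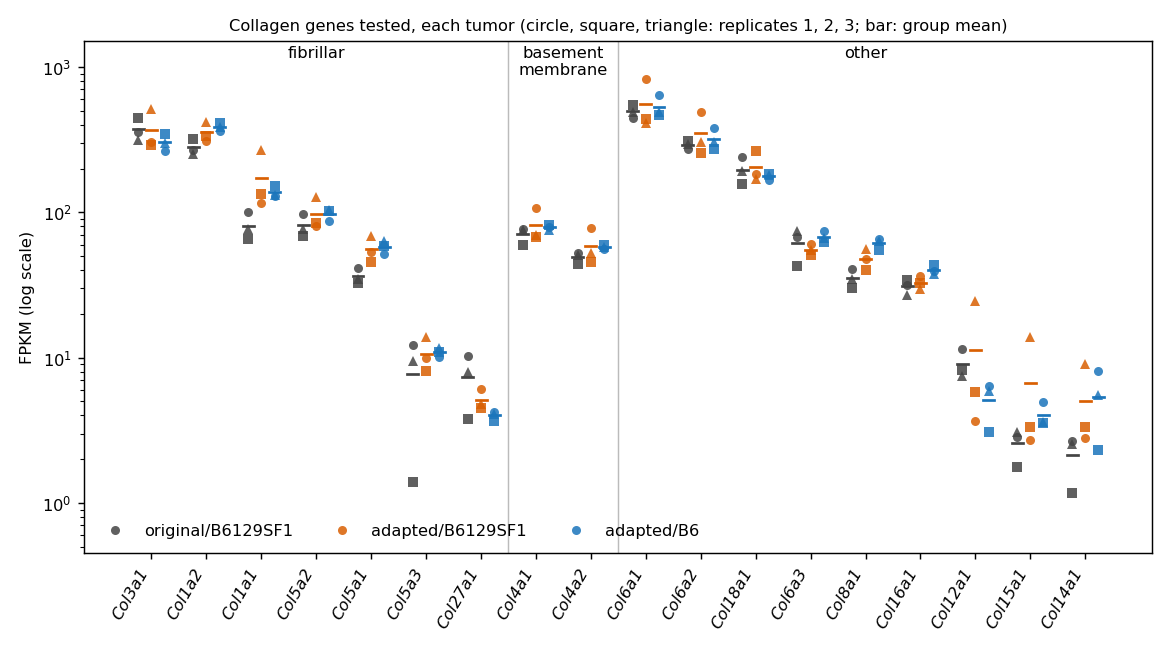
FPKM of the 18 collagen genes tested, on a log scale, with 1 point per tumor (circle, square and triangle for replicates 1, 2 and 3), a bar for each group mean and colors for the 3 groups. Col1a1 and Col5a1 lie higher in the 6 adapted tumors than in the 3 original/B6129SF1 tumors, and original/B6129SF1 replicate 2 is at 1.39 FPKM for Col5a3.

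The summed collagen level of the 40 genes was 2119 ± 75.7 FPKM in original/B6129SF1, 2484 ± 326 FPKM in adapted/B6129SF1 and 2351 ± 73.2 FPKM in adapted/B6 tumors (mean ± SD, n = 3). In single tumors it was 2145, 2179 and 2034 FPKM in original/B6129SF1, 2726, 2113 and 2613 FPKM in adapted/B6129SF1, and 2433, 2325 and 2294 FPKM in adapted/B6. The adapted/B6 sums lay above all original/B6129SF1 sums, and the adapted/B6129SF1 sums overlapped them through replicate 2. Collagens accounted for 0.406% to 0.578% of all FPKM. Fibrillar collagens alone summed to 870 ± 85.5, 1066 ± 302 and 999 ± 90.3 FPKM in the 3 groups. The large spread in adapted/B6129SF1 came from replicate 3 at 1415 FPKM, while its other tumors, at 881 and 902 FPKM, lay within the original/B6129SF1 range of 775 to 941 FPKM. Basement membrane collagens summed to 120 ± 14.03, 140 ± 38.9 and 137 ± 4.65 FPKM, and other collagens to 1129 ± 5.52, 1279 ± 331 and 1215 ± 155 FPKM. The highest sum of both of these classes was in adapted/B6129SF1 replicate 1, at 185 and 1661 FPKM.

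Differences between groups were tested on log2(FPKM + 1) with limma across all 10263 genes, with Benjamini-Hochberg adjustment. A gene counted as differentially expressed (DEG) where its adjusted p was below 0.05 and its log2 fold change beyond 1 in either direction. Against original/B6129SF1, 0 of the 18 collagens were DEGs in adapted/B6129SF1 tumors, where 3.22% of all genes tested were, and 0 of 18 in adapted/B6 tumors, where 3.09% were. At an unadjusted limma p under 0.05, 4 of 18 passed in adapted/B6129SF1 (26.5% of all genes tested) and 6 of 18 in adapted/B6 (24.4%). By adjusted p alone, 0 of 18 passed in adapted/B6129SF1 (8.28% of all genes), and Col5a1 and Col8a1, 2 of 18, passed in adapted/B6 (6.75%). The median log2 fold change of the collagens was 0.21 in adapted/B6129SF1 and 0.25 in adapted/B6, with 14 of 18 above 0 in each, beside a median of -0.03 in both comparisons and 45.7% and 46.1% above 0 over all genes tested. Both comparisons use the same original/B6129SF1 tumors. Without both muscle-rich tumors the medians were 0.24 and 0.30, with 14 and 12 of 18 above 0. Again 0 collagens were DEGs in either, beside 273 and 327 of all genes tested.

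**Figure D2:**
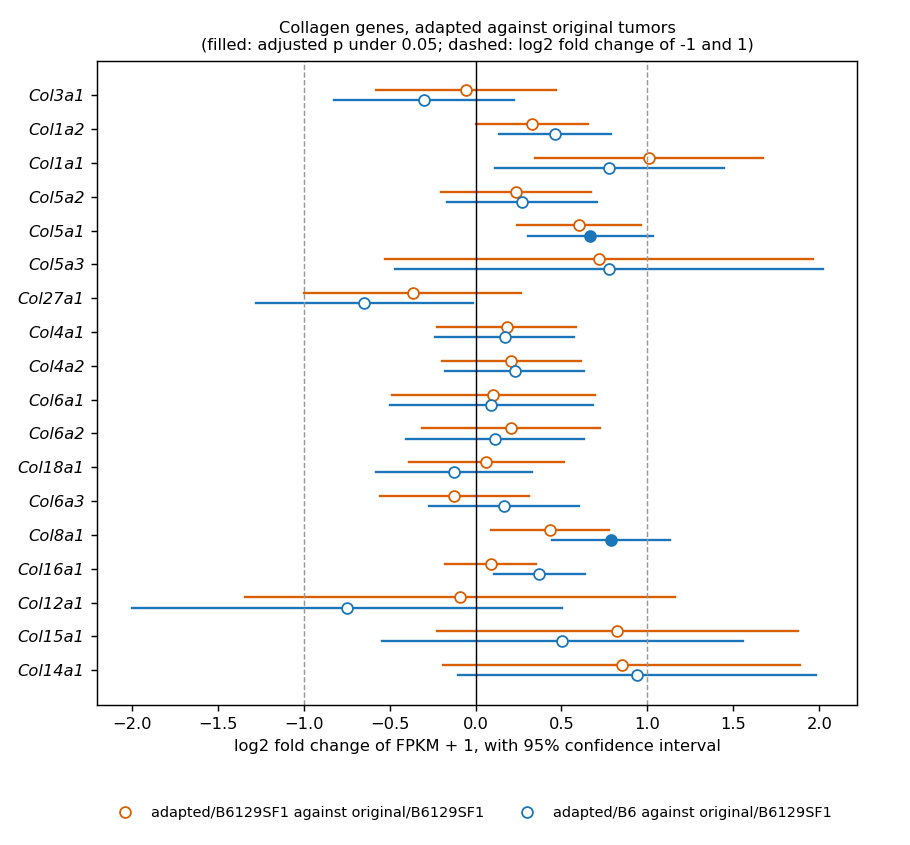
Log2 fold change of FPKM + 1 for each collagen tested in adapted/B6129SF1 and adapted/B6 against original/B6129SF1 tumors, with 95% confidence intervals (n = 3 per group), filled where the adjusted p of limma was under 0.05, and with dashed lines at -1 and 1. The filled points are those of Col5a1 and Col8a1 in adapted/B6, and the widest intervals are those of Col5a3 and Col12a1.

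Among the fibrillar collagens, Col1a1, the major chain of type I collagen, was lower in each original tumor than in each adapted tumor. Its level was 101, 65.1 and 76.3 FPKM in original/B6129SF1, 116, 134 and 268 FPKM in adapted/B6129SF1, and 128.9, 152 and 132 FPKM in adapted/B6. The 6 adapted tumors did not overlap the original/B6129SF1 tumors, as was so for 8.54% of all genes tested in this direction. The log2 fold change was 1.01 in adapted/B6129SF1 (SE 0.29, adjusted p = 0.0698 by limma) and 0.78 in adapted/B6 (SE 0.29, adjusted p = 0.146). Neither passed the test, and the 95% interval in adapted/B6129SF1 reached from 0.34 to 1.67. Leaving out adapted/B6129SF1 replicate 1 made Col1a1 a DEG, at 1.24 with an adjusted p of 0.0484. Without both muscle-rich tumors the values were 0.64 (adjusted p = 0.109) and 0.82 (adjusted p = 0.0543).

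Col1a2, the second chain of type I collagen, was at 281 ± 35.8 FPKM in original/B6129SF1, 355 ± 57.9 in adapted/B6129SF1 and 387 ± 27.4 in adapted/B6. Its adapted/B6 tumors, from 360 to 415 FPKM, lay above the original/B6129SF1 tumors, from 253 to 321 FPKM. Its log2 fold change was 0.33 in adapted/B6129SF1 (adjusted p = 0.186 by limma) and 0.46 in adapted/B6 (adjusted p = 0.0922), or 0.20 and 0.51 without both muscle-rich tumors. Col3a1, the chain of type III collagen that mixes with type I in soft tissue, was at 374 ± 66.8, 369 ± 124 and 303 ± 41.4 FPKM. Its groups overlapped, with log2 fold changes of -0.06 (95% interval -0.58 to 0.47) and -0.30 (-0.82 to 0.23). In adapted/B6129SF1 it was at 306, 289 and 511 FPKM, the last in muscle-rich replicate 3. Leaving out both muscle-rich tumors gave Col3a1 log2 fold changes of -0.32 (adjusted p = 0.311 by limma) and -0.20 (adjusted p = 0.530), and the remaining adapted/B6129SF1 tumors then lay below the original/B6129SF1 tumors, which ranged from 316 to 447 FPKM.

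Col5a1, a chain of the type V collagen that sets the diameter of type I fibers, was at 41.4, 32.6 and 34.7 FPKM in original/B6129SF1, 53.4, 45.8 and 68.7 FPKM in adapted/B6129SF1, and 51.8, 59.0 and 63.5 FPKM in adapted/B6. All 6 adapted tumors were above the 3 original/B6129SF1 tumors. The log2 fold change was 0.60 in adapted/B6129SF1 (SE 0.16, adjusted p = 0.0538 by limma) and 0.67 in adapted/B6 (SE 0.16, adjusted p = 0.0434), both short of the fold needed for a DEG. In adapted/B6 the adjusted p rose to between 0.0511 and 0.156 when any 1 of the original/B6129SF1 or adapted/B6 tumors, or adapted/B6129SF1 replicate 1, was left out. Without both muscle-rich tumors the adapted/B6129SF1 value was 0.45 with an adjusted p of 0.118 and the adapted/B6 value 0.75 with an adjusted p of 0.0264.

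Col5a2, the partner chain of Col5a1, was at 81.4 ± 14.8, 97.0 ± 25.7 and 97.8 ± 9.09 FPKM, and its log2 fold changes were 0.23 and 0.27 (adjusted p = 0.466 and 0.431 by limma). It was at 127 FPKM in muscle-rich adapted/B6129SF1 replicate 3 and at 80.5 and 83.9 FPKM in the other tumors of that group, and without both muscle-rich tumors its values were 0.03 and 0.35 (adjusted p = 0.931 and 0.238). Col5a3, the third chain of type V collagen, was between 8.11 and 13.8 FPKM in 8 tumors and at 1.39 FPKM in original/B6129SF1 replicate 2. Its log2 fold changes of 0.72 and 0.78 turned into -0.05 and 0.01 without that tumor. Col27a1, a fibrillar chain of cartilage and developing tissue, went the other way, at 10.2, 3.75 and 8.02 FPKM in original/B6129SF1, 6.05, 4.51 and 4.81 FPKM in adapted/B6129SF1, and 4.23, 3.68 and 4.11 FPKM in adapted/B6. The groups overlapped through original/B6129SF1 replicate 2, and the log2 fold changes were -0.36 and -0.65 (adjusted p = 0.433 and 0.197). Without original/B6129SF1 replicate 2, Col27a1 was a DEG in adapted/B6, at -1.01 with an adjusted p of 0.0169.

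Chains assemble into a collagen molecule in set proportions, which their RNA need not follow. RNA ratios of partner chains, and of Col1a1 to Col3a1 from different types, were compared within tumors as a description. The ratio of Col1a1 to Col1a2 FPKM was 0.374, 0.202 and 0.302 in original/B6129SF1, 0.377, 0.397 and 0.637 in adapted/B6129SF1, and 0.358, 0.366 and 0.343 in adapted/B6. It was highest in adapted/B6129SF1 replicate 3, and original/B6129SF1 replicate 1 lay among the adapted tumors. The ratio of Col5a1 to Col5a2 was 0.423, 0.471 and 0.449 in original/B6129SF1, 0.664, 0.546 and 0.543 in adapted/B6129SF1, and 0.593, 0.575 and 0.613 in adapted/B6. All 6 adapted tumors had a higher Col5a1 to Col5a2 ratio than the 3 original/B6129SF1 tumors. The ratio of Col1a1 to Col3a1 was 0.223 ± 0.0699 in original/B6129SF1, 0.456 ± 0.0716 in adapted/B6129SF1 and 0.456 ± 0.0276 in adapted/B6 tumors. It too was above the original/B6129SF1 range, 0.145 to 0.281, in each adapted tumor, where the lowest value was 0.381.

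Ratios of other partner chains differed in their spread. Col4a1 to Col4a2, which share a promoter region and assemble together, lay between 1.32 and 1.49 in all tumors. The ratio of Col6a1 to Col6a2 lay between 1.61 and 1.78 in 8 tumors and was 1.35 in adapted/B6129SF1 replicate 3. Col6a3, the third chain of type VI collagen, ranged more widely against Col6a1, from 0.0728 to 0.152. The ratio of Col5a3 to Col5a1 lay between 0.177 and 0.295 in 8 tumors and was 0.0426 in original/B6129SF1 replicate 2.

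**Figure D3:**
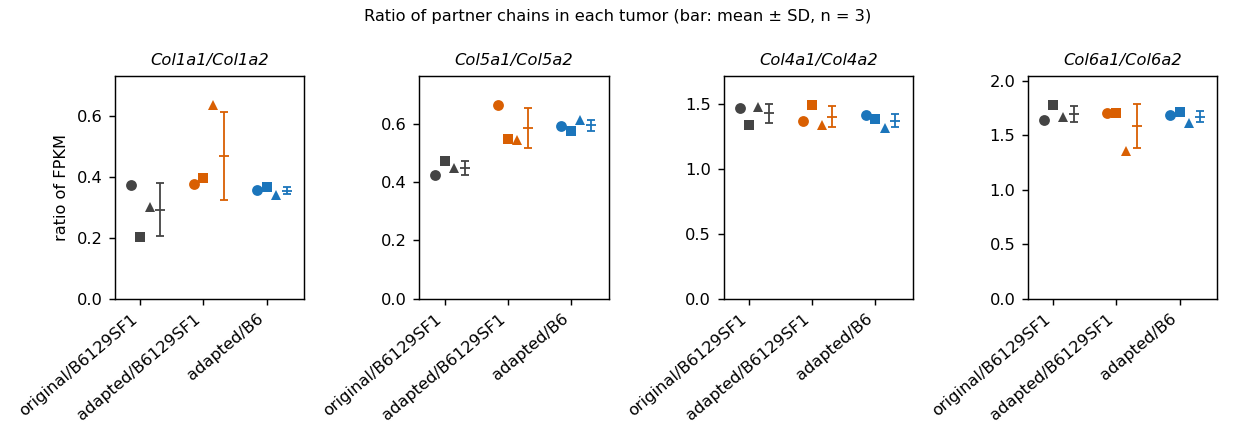
Ratio of FPKM of partner chains in each tumor for types I, V, IV and VI, with symbols for replicates as in the plot of levels and bars for the mean ± SD of 3 tumors. The Col5a1 to Col5a2 ratio separates adapted from original/B6129SF1 tumors, and the Col1a1 to Col1a2 ratio is highest, at 0.637, in adapted/B6129SF1 replicate 3.

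The type IV chains of the common basement membrane differed little between groups. Col4a1 was at 70.5 ± 9.72 FPKM in original/B6129SF1, 81.4 ± 21.9 in adapted/B6129SF1 and 79.0 ± 3.18 in adapted/B6, and Col4a2 at 49.3 ± 4.36, 58.4 ± 17.1 and 57.7 ± 2.02 FPKM. The log2 fold changes of Col4a1 were 0.18 (95% interval -0.22 to 0.59) and 0.17 (-0.23 to 0.58), and those of Col4a2 were 0.21 (-0.20 to 0.61) and 0.23 (-0.18 to 0.63). Both chains were highest in adapted/B6129SF1 replicate 1, at 107 and 77.8 FPKM, a tumor whose endothelial markers summed to 103 FPKM beside 67.6 to 113 FPKM over all tumors. Without that tumor, the adapted/B6129SF1 values of Col4a1 and Col4a2 were -0.03 and -0.01. Col18a1, the basement membrane collagen whose tail yields endostatin, was at 197 ± 42.5, 206 ± 52.2 and 177 ± 9.53 FPKM, with overlapping groups and log2 fold changes of 0.06 and -0.13. Col15a1, its relative at the outer side of basement membranes, was at 13.95 FPKM in adapted/B6129SF1 replicate 3 and between 1.78 and 4.94 FPKM in the others. Its adapted/B6129SF1 log2 fold change of 0.83 (adjusted p = 0.291 by limma) became 0.19 without both muscle-rich tumors. Col4a5 and Col4a6, the remaining type IV chains, were not analysed here.

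Col8a1, a short-chain network collagen of vessel walls and the cornea, had the smallest adjusted p of the collagens. It was at 41.1, 29.9 and 34.8 FPKM in original/B6129SF1, 47.6, 40.3 and 56.0 FPKM in adapted/B6129SF1, and 65.3, 55.3 and 63.3 FPKM in adapted/B6. The adapted/B6 tumors lay above all original/B6129SF1 tumors, and the adapted/B6129SF1 tumors overlapped the original/B6129SF1 tumors through replicate 2. The log2 fold change was 0.43 in adapted/B6129SF1 (SE 0.15, adjusted p = 0.112 by limma) and 0.79 in adapted/B6 (SE 0.15, adjusted p = 0.0191), below the fold needed for a DEG. The adapted/B6 adjusted p was between 0.0537 and 0.0864 without original/B6129SF1 replicate 2 or 3 or adapted/B6 replicate 1 or 3, and 0.0414 without both muscle-rich tumors.

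Type VI chains overlapped between each adapted group and original/B6129SF1. Col6a1 was at 496 ± 50.2, 560 ± 235 and 533 ± 94.4 FPKM, and its log2 fold changes were 0.10 (95% interval -0.49 to 0.69) and 0.09 (-0.50 to 0.68). Col6a2 was at 292 ± 17.7, 350 ± 123 and 319 ± 55.5 FPKM. The high values were those of adapted/B6129SF1 replicate 1, at 831 FPKM for Col6a1 and 489 FPKM for Col6a2, without which the adapted/B6129SF1 log2 fold changes were -0.22 and -0.06. Col6a3 was at 61.9 ± 16.9, 55.3 ± 4.97 and 67.7 ± 5.58 FPKM, with log2 fold changes of -0.12 and 0.17.

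The fibril-associated collagens, which sit on the surface of fibers, differed in direction. Col16a1, of this family, was at 30.9 ± 3.47 FPKM in original/B6129SF1, 32.9 ± 3.55 in adapted/B6129SF1 and 40.1 ± 2.96 in adapted/B6, where its log2 fold change was 0.37 (adjusted p = 0.0953 by limma). Col12a1, found on fibers of tendon and of tissue under load, was at 11.5, 8.26 and 7.43 FPKM in original/B6129SF1, 3.67, 5.84 and 24.4 FPKM in adapted/B6129SF1, and 6.35, 3.08 and 5.88 FPKM in adapted/B6. Apart from adapted/B6129SF1 replicate 3, the adapted tumors were below the original/B6129SF1 tumors. Its log2 fold changes were -0.09 and -0.75 (adjusted p = 0.937 and 0.45), and -0.81 and -0.91 without both muscle-rich tumors. Col14a1, a fiber coat of skin and tendon, was at 2.67, 1.16 and 2.55 FPKM in original/B6129SF1, 2.78, 3.34 and 9.05 FPKM in adapted/B6129SF1, and 8.15, 2.33 and 5.504 FPKM in adapted/B6. Its highest levels were in the muscle-rich tumors, and its log2 fold changes of 0.85 and 0.94 did not pass the test (adjusted p = 0.273 and 0.249 by limma). They were 0.41 and 0.61 without both muscle-rich tumors (adjusted p = 0.499 and 0.332).

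Groups that did not overlap were also counted. In adapted/B6129SF1, 3 of the 18 collagens lay above every original/B6129SF1 tumor (Col1a1, Col5a1 and Col14a1), beside 13.6% of all genes tested, and 0 lay below, beside 15.9%. In adapted/B6, 7 of 18 lay above (Col1a1, Col1a2, Col4a2, Col5a1, Col8a1, Col15a1 and Col16a1), beside 14.9%, and 1 lay below (Col12a1), beside 17.9%. With both muscle-rich tumors left out, 3 lay above in adapted/B6129SF1, beside 18.9% of all genes tested, and 2 lay below (Col3a1 and Col12a1), beside 21.3%. In adapted/B6, 8 then lay above, with Col5a2 added, beside 19.8%, and 1 lay below, beside 22.4%.

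The comparison of adapted/B6 with adapted/B6129SF1 tumors holds the cells constant and varies the host strain. With 0 of 18 collagens as DEGs, beside 0.0292% of all genes tested, limma with Benjamini-Hochberg adjustment found no collagen with an adjusted p below 0.789. At an unadjusted p under 0.05, 2 of 18 passed, Col8a1 and Col16a1, beside 6.27% of all genes. Col8a1 was higher in adapted/B6 by 0.36 on the log2 scale (95% interval 0.01 to 0.70) and Col16a1 by 0.28 (0.02 to 0.55). The median of the collagens was 0.00, with 9 of 18 above 0, beside 0.01 over all genes. It was 0.18 without both muscle-rich tumors, with 11 of 18 above 0, beside 0.01 over all genes tested. Col6a3 and Col16a1 lay above, and Col27a1 below, every adapted/B6129SF1 tumor, beside 6.32% and 5.42% of all genes tested. Leaving out both muscle-rich tumors left 2 tumors in each group, and 8 collagens then lay above and 2 below, beside 19.4% and 17.3% of all genes tested. Intervals were wide for several chains, for example -0.89 to 0.44 for Col1a1 and -1.91 to 0.59 for Col12a1, and differences within these intervals were not excluded. The log2 fold change of Col1a1 without both muscle-rich tumors was 0.18 in place of -0.23, and that of Col12a1, which was -0.66 with all tumors, was 0.06 without adapted/B6129SF1 replicate 3.

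The 22 collagens below the filter supplied between 0.0718% and 0.287% of the collagen FPKM of a tumor, and 19 of them stayed under 1 FPKM in every tumor. The genes named here were chosen after their values were seen. With the filter relaxed to FPKM above 0 in at least 1 tumor, 0 of the 22 were DEGs by limma against original/B6129SF1 in adapted/B6129SF1, beside 1.86% of the 14520 genes then tested, and 0 in adapted/B6, beside 1.77%. The 19 that stayed under 1 FPKM could not be DEGs, because with 1 FPKM added their log2 fold change cannot exceed 1. For them the 0 was fixed in advance, and no conclusion is drawn from it. By adjusted p alone 2 of the 22 passed in adapted/B6129SF1, beside 4.97%, and 2 in adapted/B6, beside 4.12%. These were Col4a4 (log2 fold change -0.33, adjusted p = 0.0411) and Col24a1 (0.32, adjusted p = 0.0466) in adapted/B6129SF1, and Col9a3 (0.27, adjusted p = 0.0195) and Col28a1 (-0.55, adjusted p = 0.0479) in adapted/B6. Over all 40 collagens, 4 lay above the original/B6129SF1 tumors in all 6 adapted tumors, beside 6.1% of all genes in the table, and 3 lay below, beside 6.83%. Those below were Col4a3, Col4a4 and Col28a1. Col4a3, a chain of the specialized basement membrane of kidney and lung, was at 0.125, 0.299 and 0.606 FPKM in original/B6129SF1 and at most 0.111 FPKM in adapted tumors. Its partner Col4a4 was at 0.198, 0.381 and 0.404 FPKM in original/B6129SF1 and at most 0.185 FPKM in adapted tumors. Col28a1, a collagen of peripheral nerve, was at 1.72, 1.03 and 0.994 FPKM in original/B6129SF1 and between 0.448 and 0.633 FPKM in adapted tumors. Those above were Col1a1 and Col5a1, already described, and Col9a3 and Col24a1. Col24a1, a fibrillar chain of developing bone, was at 0.0363, 0.106 and 0.0117 FPKM in original/B6129SF1 and between 0.132 and 0.378 FPKM in adapted tumors. Col9a3, a type IX chain of cartilage, was at most 0.0800 FPKM in original/B6129SF1 and between 0.155 and 0.340 FPKM in adapted tumors.

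Single tumors held most of the signal of several rare chains. Of the 22, 8 were highest in adapted/B6 replicate 1, among them the cartilage chain Col2a1, at 0.801 FPKM there and at most 0.0170 FPKM in the other tumors. In the same tumor the bone markers summed to 22.5 FPKM, beside 0.273 to 7.17 FPKM in the others, with Ibsp (bone sialoprotein) at 9.47 FPKM and at most 0.0691 FPKM elsewhere. Both bone markers that were tested, Dmp1 and Alpl, were DEGs in both adapted groups and higher, beside 2.36% and 2.42% of all genes tested. Both passed the filter only through adapted tumors, as neither reached 1 FPKM in an original/B6129SF1 tumor. Being tested thus already depended on high levels in adapted tumors, and no conclusion on bone markers as a set is drawn. Of the 6 bone markers with values, only these 2 lay above every original/B6129SF1 tumor in either adapted group. Dmp1, a protein of bone matrix and the most abundant bone marker by its mean over the tumors, was at 0.176 ± 0.177 FPKM in original/B6129SF1, 3.38 ± 1.42 in adapted/B6129SF1 and 3.18 ± 1.65 in adapted/B6 (log2 fold changes 1.86 and 1.77, adjusted p = 0.0119 and 0.0134 by limma). In adapted/B6 its adjusted p was 0.0516 without original/B6129SF1 replicate 1 and 0.0518 without adapted/B6 replicate 3. Alpl, an alkaline phosphatase of bone and other tissues, was at most 0.130 FPKM in original/B6129SF1 and between 0.860 and 2.05 FPKM in the adapted tumors, with log2 fold changes of 1.20 (adjusted p = 0.0210 by limma) and 1.14 (adjusted p = 0.0275). The adapted/B6129SF1 call of Alpl was lost without original/B6129SF1 replicate 1 or 3 or adapted/B6129SF1 replicate 1 or 2, and its adapted/B6 call without any 1 of the original/B6129SF1 tumors or adapted/B6 replicate 1 or 2 (adjusted p between 0.0523 and 0.0918). The cartilage markers summed to 11.4 FPKM in adapted/B6 replicate 1, within the 5.55 to 13.9 FPKM of all tumors, and Sox9, a cartilage regulator also made elsewhere, was the most abundant. Of the 7 cartilage markers, 3 were highest in it, Ucma at 0.525 FPKM (at most 0.154 elsewhere), Hapln1 at 0.152 (at most 0.0288) and Comp at 3.15 FPKM (at most 2.09). Matn1 was listed at 0 in this and 7 other tumors. Another 7 of the 22 were highest in adapted/B6129SF1 replicate 3, where Col8a2, the partner of Col8a1, was at 2.52 FPKM and Col11a1, a minor fibrillar chain, at 1.17 FPKM. These muscle-rich tumors also had the most genes at 1 FPKM or more. The numbers were 10414 in adapted/B6129SF1 replicate 3 and 10338 in adapted/B6 replicate 1, and at most 10023 elsewhere. How many of all genes were highest in them was not counted, so no trait of collagens is read from these counts. Whether bone, muscle or connective tissue in these samples carried the rare chains was not tested.

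**Figure D4:**
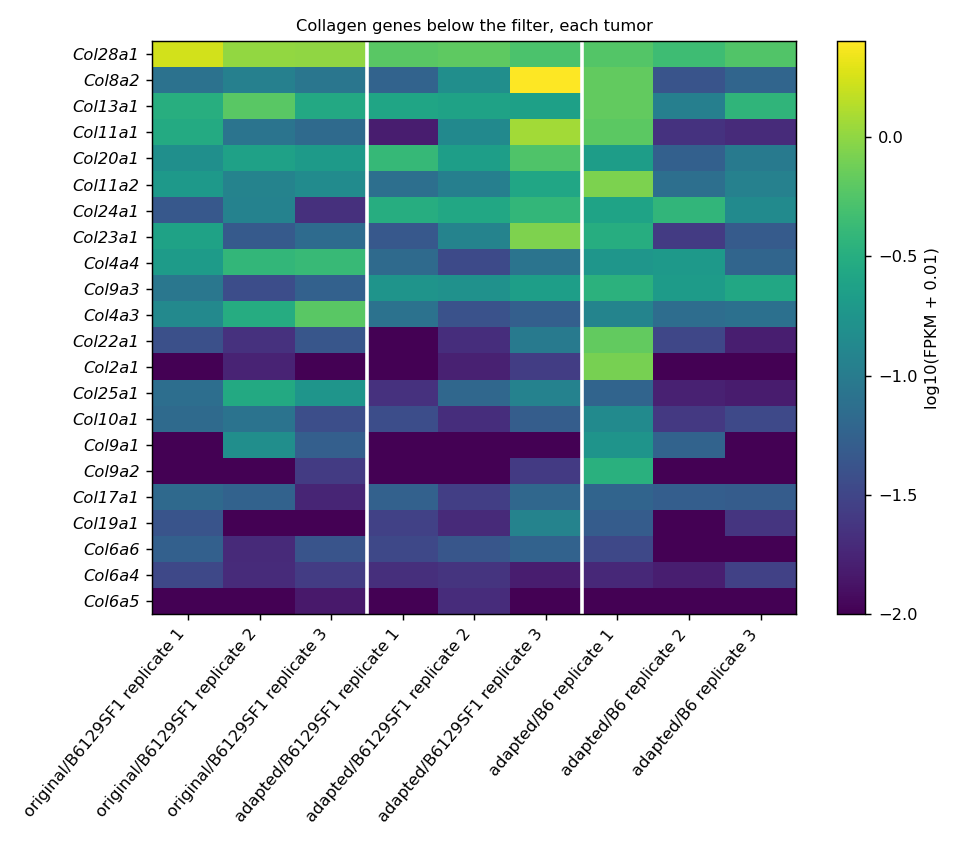
Heat map of log10(FPKM + 0.01) for the 22 collagens below the filter, with 1 column per tumor and white lines between groups. Col4a3, Col4a4 and Col28a1 are brighter in the 3 original/B6129SF1 columns, and Col2a1 is brightest in adapted/B6 replicate 1, at 0.801 FPKM.

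Genes that fold, cleave, cross-link, bind or degrade collagen were read from 6 lists with 72 symbols, of which 58 were in the table and 50 were tested. Against original/B6129SF1, 6 of 50 were DEGs in adapted/B6129SF1, 3 of them higher (2.36% of all genes tested) and 3 lower (0.857%). In adapted/B6, 4 of 50 were DEGs, 3 higher (2.42% of all genes tested) and 1 lower (0.672%). Their median log2 fold changes were -0.05 and -0.10. In adapted/B6 against adapted/B6129SF1, 0 of 50 were DEGs by limma, beside 0.0292% of all genes tested, and 4 of 50 had an unadjusted p under 0.05, beside 6.27%. These were Itga10 and Ctsk, which were lower, and Ddr2 and Mmp13, which were higher. The collagen receptor Itga10 had a log2 fold change of -1.10 there (adjusted p = 0.293 by limma). Against original/B6129SF1 it was at -0.88 in adapted/B6 (adjusted p = 0.0363) and 0.23 in adapted/B6129SF1 (adjusted p = 0.497). Against original/B6129SF1, 20 of 50 had an unadjusted p under 0.05 in adapted/B6129SF1, beside 26.5%, and 15 of 50 in adapted/B6, beside 24.4%. Ctsk, the lysosomal collagenase cathepsin K, was at 206, 117 and 191 FPKM in original/B6129SF1, 491, 507 and 116 FPKM in adapted/B6129SF1, and 208, 61.1 and 84.7 FPKM in adapted/B6. It was low in adapted/B6129SF1 replicate 3, and without both muscle-rich tumors Ctsk became a DEG in adapted/B6 against adapted/B6129SF1, at -2.78 (adjusted p = 0.0498). None of the 11 folding and modification genes tested and none of the 5 lysyl oxidases (Lox and its relatives, which start cross-links) was a DEG by limma against original/B6129SF1. At an unadjusted p under 0.05, 4 of 11 and 3 of 5 passed in adapted/B6129SF1 (26.5% of all genes tested) and 2 of 11 and 2 of 5 in adapted/B6 (24.4%). By adjusted p alone, Serpinh1, the collagen chaperone HSP47, was higher in adapted/B6 by 0.66 (adjusted p = 0.0417 by limma), and Plod2, a lysyl hydroxylase, had a log2 fold change of -0.58 (adjusted p = 0.0471). Loxl3, a lysyl oxidase, was at 37.1 ± 4.39, 73.6 ± 6.80 and 67.0 ± 9.09 FPKM, with log2 fold changes of 0.97 (adjusted p = 0.00592) and 0.84 (adjusted p = 0.00776), just short of the fold for a DEG. Most lysyl oxidases went the other way, as 1 of 5 was above 0 in adapted/B6129SF1 and 2 of 5 in adapted/B6. The medians of the 5 were -0.15 and -0.57. Loxl2 was at -0.86 and -0.60 and Loxl4 at -0.59 and -0.57, and neither passed the test.

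Adamts2, the protease that removes the amino-terminal propeptide of procollagens, rose in both adapted groups. It was at 2.01, 0.842 and 2.30 FPKM in original/B6129SF1, 7.24, 6.46 and 10.3 FPKM in adapted/B6129SF1, and 6.63, 8.90 and 8.33 FPKM in adapted/B6, with no overlap. The log2 fold changes were 1.75 (SE 0.24, adjusted p = 0.00727 by limma) and 1.76 (SE 0.24, adjusted p = 0.00551), and both calls held in every alternative run. Pcolce2, an enhancer of carboxy-terminal propeptide removal, fell in adapted/B6129SF1, from 14.3, 18.4 and 20.5 FPKM to 4.02, 7.66 and 7.19 FPKM. Its log2 fold change was -1.39 (adjusted p = 0.0150), with an adjusted p of 0.0656 without original/B6129SF1 replicate 3, and in adapted/B6 it was -0.95 (adjusted p = 0.0551).

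Mmp2, a gelatinase that cuts denatured and type IV collagen, fell in both adapted groups. It was at 78.4, 94.8 and 74.5 FPKM in original/B6129SF1, 16.0, 16.3 and 42.7 FPKM in adapted/B6129SF1, and 22.9, 10.6 and 14.9 FPKM in adapted/B6. No adapted tumor reached the original/B6129SF1 levels. The log2 fold changes were -1.83 (SE 0.38, adjusted p = 0.0243 by limma) and -2.34 (SE 0.38, adjusted p = 0.00949). The adapted/B6129SF1 call was lost without any 1 of the original/B6129SF1 tumors or adapted/B6129SF1 replicate 1 or 2 (adjusted p between 0.0587 and 0.0731), the adapted/B6 call was lost without adapted/B6 replicate 3 (adjusted p = 0.0502), and without both muscle-rich tumors the values were -2.28 and -2.61. Mmp13, a collagenase, fell in adapted/B6129SF1 with a log2 fold change of -1.52 (adjusted p = 0.0308), from 6.58, 2.15 and 5.47 FPKM to 0.591, 1.35 and 0.751 FPKM. That call was lost without original/B6129SF1 replicate 1 or 3, any adapted/B6129SF1 tumor or adapted/B6 replicate 3, with adjusted p between 0.0511 and 0.106, and it was -1.47 (adjusted p = 0.0719) without both muscle-rich tumors. In adapted/B6 Mmp13 was at 3.90 ± 1.37 FPKM, and its log2 fold change was -0.16.

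Fap, a protease of activated fibroblasts that cuts gelatin, rose in adapted/B6129SF1 from 0.957 ± 0.296 to 3.55 ± 0.999 FPKM, by 1.21 on the log2 scale (adjusted p = 0.0161 by limma), and the adjusted p was 0.0656 without original/B6129SF1 replicate 3. In adapted/B6 it was at 2.64 ± 0.691 FPKM, with a log2 fold change of 0.89 (adjusted p = 0.0479). Fbln2, a glycoprotein of the matrix around elastic fibers, was higher in both adapted groups and a DEG in adapted/B6. It was at 83.9, 55.9 and 70.2 FPKM in original/B6129SF1, 131, 122 and 142 FPKM in adapted/B6129SF1 and 130.2, 157 and 170 FPKM in adapted/B6, with no overlap. In adapted/B6129SF1 its log2 fold change was 0.92 (adjusted p = 0.0134), below the fold for a DEG, and in adapted/B6 it had a log2 fold change of 1.12 (adjusted p = 0.00601) that was 0.97 without original/B6129SF1 replicate 2. Lair1, an inhibitory collagen receptor of leukocytes, rose from 5.48 ± 0.162 FPKM to 15.7 ± 3.83 FPKM in adapted/B6129SF1 and 15.1 ± 5.47 FPKM in adapted/B6. The log2 fold changes were 1.34 (adjusted p = 0.0218) and 1.25 (adjusted p = 0.0300). Both Lair1 calls were lost without any 1 original/B6129SF1 tumor. They were also lost without adapted/B6129SF1 replicate 2 or 3 in adapted/B6129SF1 and without adapted/B6 replicate 1 or 3 in adapted/B6, with adjusted p from 0.0536 to 0.112 over these, and without both muscle-rich tumors (0.0690 and 0.0828). The 6 leukocyte markers, led by Cd52, summed to 329 to 388 FPKM in original/B6129SF1 and 422 to 807 FPKM in adapted tumors, and their part in the Lair1 levels was not tested. Cd52 was the only DEG among the 6, in adapted/B6129SF1 (log2 fold change 1.12, adjusted p = 0.0491 by limma, beside 2.36% of all genes tested). That call was lost in 7 of the 9 fits with 1 tumor left out. These included any 1 of the original/B6129SF1 tumors (adjusted p between 0.0972 and 0.130) and adapted/B6129SF1 replicate 3, at a log2 fold change of 0.99. It was also lost without both muscle-rich tumors (adjusted p = 0.133). In adapted/B6 the log2 fold change of Cd52 was 1.14 (adjusted p = 0.0512).

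**Figure D5:**
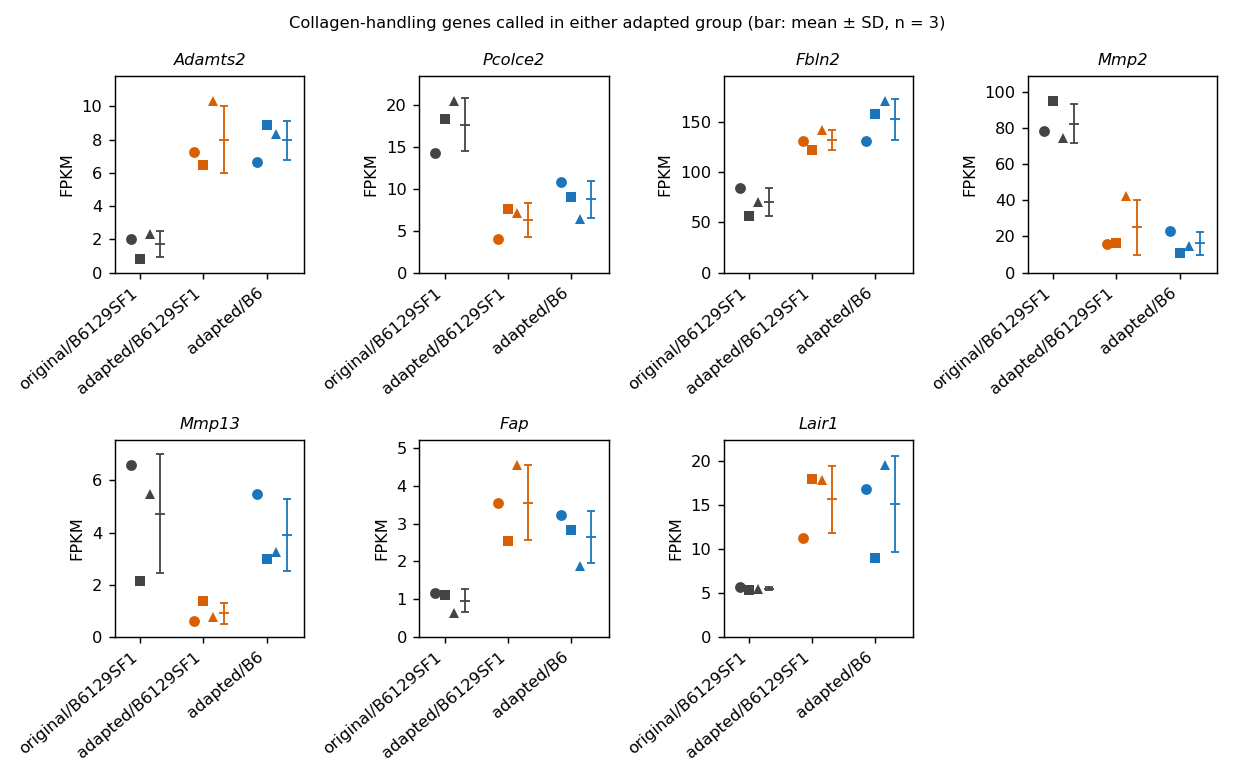
FPKM of the 7 collagen-handling genes that were DEGs in either adapted group, with 1 point per tumor, symbols for replicates as in the plot of levels and bars for the mean ± SD of 3 tumors. Adamts2 and Mmp2 separate all 6 adapted tumors from the 3 original/B6129SF1 tumors, in opposite directions.

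Markers of fibroblasts were read beside the collagens. The 12 fibroblast markers summed to 319, 467 and 409 FPKM in original/B6129SF1, 579, 404 and 861 FPKM in adapted/B6129SF1, and 584, 620 and 591 FPKM in adapted/B6, and Pdgfra, a growth factor receptor, was the most abundant. Against original/B6129SF1, 2 of 12 were DEGs in adapted/B6129SF1, Acta2 and Fap (also on the list of degrading enzymes), both higher (2.36% of all genes tested), and 2 of 12 in adapted/B6, Acta2 and Thy1, both higher (2.42%). In each comparison its other 10 markers were not DEGs, and 0 of 12 were DEGs in adapted/B6 against adapted/B6129SF1, where 0.0292% of all genes were. Against original/B6129SF1, 9 of 12 had a fold change above 0 in adapted/B6129SF1 and 8 of 12 in adapted/B6, beside 45.7% and 46.1% of all genes tested. Those below 0 in both included Lum, at -0.71 and -1.29, and Dcn, at -0.39 and -0.63. Acta2, the smooth muscle actin of myofibroblasts, was at 15.8, 8.33 and 8.99 FPKM in original/B6129SF1, 27.9, 30.9 and 76.5 FPKM in adapted/B6129SF1, and 34.2, 41.7 and 47.4 FPKM in adapted/B6. Its log2 fold changes were 1.84 (adjusted p = 0.0229 by limma) and 1.85 (adjusted p = 0.0242). The adapted/B6129SF1 call was lost without original/B6129SF1 replicate 2 or 3, and the adapted/B6 call without either of these or any 1 of the adapted/B6 tumors (adjusted p between 0.0502 and 0.102). Acta2 was a DEG in both without both muscle-rich tumors, at 1.39 (adjusted p = 0.0268) and 1.97 (adjusted p = 0.00779). Thy1, a surface protein of fibroblasts and other cells, rose in adapted/B6 from 57.1 ± 13.97 to 165 ± 19.97 FPKM, by 1.54 (adjusted p = 0.00527). In adapted/B6129SF1 Thy1 was at 92.8 ± 21.7 FPKM, with a log2 fold change of 0.70 (adjusted p = 0.0786 by limma). Between adapted/B6 and adapted/B6129SF1 it was 0.84 (adjusted p = 0.534). Tumor cells can express these genes too, as can other host cells for Thy1, and the part of fibroblasts in the collagen levels was not tested.

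Of the 4 epithelial markers tested, 1 was a DEG in each adapted group, Krt8, the most abundant, beside 0.857% and 0.672% of all genes tested that were DEGs in this direction. It fell in both, from 510 ± 131 FPKM to 205 ± 68.8 FPKM in adapted/B6129SF1 and 228 ± 11.1 FPKM in adapted/B6. Its log2 fold changes were -1.32 (adjusted p = 0.0189 by limma) and -1.12 (adjusted p = 0.0346). Both Krt8 calls were lost without original/B6129SF1 replicate 1 or 3, the adapted/B6 call also without any 1 of the adapted/B6 tumors (adjusted p between 0.0670 and 0.113), and both were lost without both muscle-rich tumors (0.0620 and 0.0631). The log2 fold changes of Krt18 were -0.94 and -0.93, those of Cdh1 -0.52 and 0.36 and those of Epcam -0.26 and 0.01, and none of these passed the test. Krt14, a keratin of basal epithelium below the filter, was listed at 0 in each original/B6129SF1 tumor and lay between 0.0302 and 0.420 FPKM in the 6 adapted tumors. Of the 7 pericyte markers, Cspg4, a proteoglycan of mural cells, fell in both adapted groups, from 7.96 ± 1.96 to 3.42 ± 0.690 and 3.12 ± 1.19 FPKM. Its log2 fold changes were -1.01 (adjusted p = 0.0354) and -1.14 (adjusted p = 0.0262). The adapted/B6129SF1 call was lost without any 1 of the original/B6129SF1 tumors, adapted/B6129SF1 replicate 2 or 3 or adapted/B6 replicate 3, and the adapted/B6 call without original/B6129SF1 replicate 1 or 3 or adapted/B6 replicate 2 or 3 (adjusted p between 0.0505 and 0.114). The other pericyte markers were not DEGs, and 5 of the 7 had a fold change above 0 in each adapted group. Mcam, an adhesion molecule of mural and endothelial cells, had a log2 fold change of 0.52 in adapted/B6 (adjusted p = 0.149 by limma), where its 3 tumors lay above the original/B6129SF1 tumors. Des (desmin), which muscle shares, was the most abundant, at 1826 FPKM in adapted/B6129SF1 replicate 3. Of the 8 endothelial markers, 0 were DEGs by limma against original/B6129SF1 in either adapted group, beside 3.22% and 3.09% of all genes tested, and 0 had an unadjusted p under 0.05, beside 26.5% and 24.4%. All 8 had a fold change above 0 in both groups, and 2 lay above every original/B6129SF1 tumor in adapted/B6, beside 14.9% of all genes tested.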

How the data were processed

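Whole-tumor RNA was sequenced by the authors as paired-end TruSeq libraries on a HiSeq2000, checked with FastQC, aligned to mm10 with HISAT2 and normalized with Cuffnorm. The deposited values are FPKM, made by the authors for all tumors together. The gene annotation and the Cuffnorm version and scaling are not given in the sources used here. Counts were not used, so the depth of each tumor is unknown. The number of tumors limits the precision.

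Low values were damped by adding a pseudocount of 1 FPKM before log2 was taken, so changes of low genes are understated. Genes entered the fit where 3 or more tumors had 1 FPKM or more (10263 genes). The 3 groups shared a single linear model in limma 3.58.1 under R 4.3.3, moderated by eBayes along the trend of variance with level, and Benjamini-Hochberg adjustment covered every gene in the fit. A DEG had to pass 0.05 by adjusted p and a log2 fold change of 1 in size. Sums and ratios were described without a test. Summed FPKM per tumor ran from 457983 to 540514, and at most 0.0487% of the genes tested had equal values in any pair of tumors.

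The collagens and the hand-written gene lists were chosen with earlier results of these data known. Any collagen tested could be named. From the lists, DEGs, the most abundant gene and markers at 0 could be named, and others were named after their values were seen. In data simulated for adapted/B6129SF1 against original/B6129SF1 over 10263 genes, 88 of 100 genes changed by 1.5 on the log2 scale and 99 of 100 changed by 2.5 were called, with 0 unchanged genes called. The changed genes were drawn only from genes with a mean level well above the filter, and noise was independent between tumors. Lower genes and changes of 1 or less, such as those of most collagens, were not simulated, so no conclusion on the collagens is drawn from it.

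Alternatives were another pseudocount (0.1), filter and scaling, only the groups compared, a replicate block, robust eBayes, each tumor left out, both muscle-rich tumors left out and the adjusted p alone. Col4a5, Col4a6, Col7a1 and Col26a1 were not analysed here, and neither were coordinates or sequences. The authors' own test, Cuffdiff, was not used here.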

Additional observations from a re-analysis of the deposited data

How the results depend on the processing

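Of 1444 values over 76 log2 fold changes and their alternatives, 1301 kept their direction and side of the threshold, 92 lost a call, 4 gained one and 47 changed sign. All 47 were of collagens that were not DEGs. No collagen was a DEG with all tumors, so only the fold changes of list genes could lose a call. Shares of the 1444 values or of the 76 fold changes therefore understate how often calls were lost. With the filter of FPKM above 0 in at least 1 tumor, 5 of the 76 lost a call. Lost calls numbered 3 with only the groups compared and 7 with the replicate block. A filter on mean FPKM, median of ratios scaling and upper quartile scaling each lost 1 call. By adjusted p alone, 2 of 18 collagens and 9 of 50 collagen-handling genes passed in adapted/B6 against original/B6129SF1 (6.75% of all genes tested), in place of 0 and 4, and 0 of 18 and 8 of 50 in adapted/B6129SF1 (8.28%), in place of 0 and 6. Without both muscle-rich tumors, 7 of the 76 log2 fold changes lost a call. In adapted/B6 against adapted/B6129SF1, 1 collagen-handling gene was then a DEG, in place of 0. Without these tumors, Col6a1 and Col6a2 were -0.048 and -0.020 in adapted/B6 against original/B6129SF1, and Col1a1, Col3a1, Col4a2 and Col15a1 were 0.18, 0.11, -0.016 and 0.19 in adapted/B6 against adapted/B6129SF1. With median of ratios scaling the summed other collagens of original/B6129SF1 were 1119.8 FPKM in place of 1129. With 1 tumor left out, between 0 and 1 collagens were DEGs in adapted/B6129SF1 and in adapted/B6 against original/B6129SF1, and 0 in adapted/B6 against adapted/B6129SF1. Collagen-handling DEGs numbered 2 to 6, 2 to 5 and 0, while DEGs among all genes tested numbered 150 to 350, 154 to 343 and 0 to 6. The lowest count in adapted/B6129SF1, 2, was without original/B6129SF1 replicate 3, where 150 of all genes were DEGs. The log2 fold changes of collagens that changed sign then ranged as follows. In adapted/B6129SF1 against original/B6129SF1 they were Col3a1 -0.32 to 0.094, Col6a3 -0.36 to 0.032, Col6a2 -0.063 to 0.40, Col6a1 -0.22 to 0.29, Col18a1 -0.13 to 0.22, Col4a2 -0.014 to 0.37, Col4a1 -0.026 to 0.30, Col5a3 -0.049 to 1.19, Col12a1 -0.81 to 0.41. In adapted/B6 against original/B6129SF1 they were Col6a3 -0.077 to 0.32, Col6a2 -0.020 to 0.22, Col6a1 -0.048 to 0.18, Col18a1 -0.28 to 0.031. In adapted/B6 against adapted/B6129SF1 they were Col3a1 -0.39 to 0.020, Col5a2 -0.080 to 0.24, Col6a2 -0.29 to 0.18, Col6a1 -0.19 to 0.31, Col18a1 -0.32 to 0.0077, Col1a1 -0.46 to 0.14, Col14a1 -0.24 to 0.52, Col5a1 -0.065 to 0.22, Col15a1 -0.69 to 0.31, Col4a2 -0.14 to 0.24, Col4a1 -0.13 to 0.20, Col5a3 -0.11 to 0.25, Col12a1 -1.16 to 0.063. Same-numbered tumors are different animals and their deviations correlated from -0.388 to 0.614, and not every tumor correlated best with its own number, so the replicate numbers were not taken to pair the tumors. With a replicate block, 242, 245 and 0 of all genes tested were DEGs in the 3 comparisons, in place of 330, 317 and 3. Of these, 0 were collagens and 4, 3 and 0 were collagen-handling genes, the latter in place of 6, 4 and 0. The cause of these differences was not tested. Depth is unknown, so no counting error can be given for levels near or under 1 FPKM.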
